A study of Mus musculus with 3 samples.

Results

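The subject of this account is the set of genes that encode MHC class I molecules in mouse macrophages: 8 class I heavy chain genes, H2-K1, H2-D1, H2-Q4, H2-Q6, H2-Q7, H2-T22, H2-T23 and H2-M3, and B2m, which encodes the light chain β2-microglobulin. They were taken by symbol, and all 9 were found among the 55536 genes of the tables. RNA was sequenced without poly(A) selection, after removal of ribosomal RNA, from the cytosol of macrophages that had been grown from bone marrow, a common model of inflammatory macrophages. The single group comprised 3 libraries of strain C57BL/6J. Every culture had received lipid A, the part of lipopolysaccharide sensed by Tlr4, at 100 ng/ml for 12 hours, then 12 hours without it, then 100 ng/ml again for 60 minutes. Each library was made from 1 µg of RNA, and all carry the same donor entry. No allele or other agent is named in the labels, and age and sex were not recorded. Whether the cultures came from separate animals is not stated, so the p-values over libraries reflect only how these samples spread, which may be technical. Untreated cells were not analysed here, so the values are levels and not responses to lipid A.

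Class I molecules present short peptides from inside the cell to T cells and NK cells. A heavy chain reaches the surface only when it has bound β2-microglobulin and, for most heavy chains, a peptide that the transporter Tap1/Tap2 has moved into the endoplasmic reticulum. H2-K1 and H2-D1 encode the classical, highly polymorphic chains. The other heavy chains are non-classical: H2-Q6 and H2-Q7 encode Qa-2 antigens, H2-T23 encodes Qa-1, H2-T22 encodes a ligand of γδ T cells, H2-M3 presents peptides that begin with formyl-methionine, and H2-Q4 is a further member of the Q region. In many cell types interferons raise class I transcription, and macrophages use the molecules to show peptides to CD8 T cells.

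All heavy chain genes lie on chromosome 17 (genome build mm10, GENCODE M21 annotation), and B2m lies alone on chromosome 2. H2-K1 spans chr17:33996017-34000347 on the minus strand. H2-D1 spans chr17:35262730-35267499, H2-Q4 chr17:35379617-35385290, H2-Q6 chr17:35424850-35430055 and H2-Q7 chr17:35439155-35443773, all on the plus strand. H2-T23 (chr17:36029773-36032855) and H2-T22 (chr17:36037128-36042747) lie on the minus strand, while H2-M3 (chr17:37270220-37274484) and B2m (chr2:122147686-122153083) lie on the plus strand.

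The libraries held 50807046, 53364168 and 46546422 expected counts in replicates 1, 2 and 3. In CPM (counts scaled to a fixed library total) the limit that a count of 0 allows, 3 counts, was 0.059, 0.0562 and 0.0645, for counting error only. All 10 macrophage markers stood above 1 TPM (transcript abundance per unit of length, scaled to a fixed total), led by the lysozyme gene Lyz2 at 3525 ± 672 TPM (SD, n = 3). None of 9 T and NK cell markers stood above 1 TPM, their sum was at most 0.41 TPM, and the defining markers Cd3g, Ncr1 and Klrb1c were listed at 0 in all 3 libraries. Of the 5 B cell markers, Cd79b alone stood above that level, at 1.53 ± 0.346 TPM, and of the 6 neutrophil markers 2 did, S100a9 being highest at 4.66 ± 0.497 TPM. No dendritic cell marker of 6 and no stromal marker of 6 was called above it, and the highest were Batf3 at 1.42 ± 0.521 TPM and Col1a1 at 1.27 ± 1.27 TPM. Protein-coding nuclear genes held 34.5%, 29% and 27.5% of TPM in replicates 1, 2 and 3, and 7SL RNA, a short cytoplasmic RNA, held 58.5%, 63.7% and 58.5%. Values were therefore also computed after scaling to the nuclear protein-coding genes alone, here called coding-scaled TPM, which raised every gene by 1.54, 1.79 and 1.86 on the log2 scale in the same order.

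B2m and the classical heavy chains were among the most abundant RNAs of these cells. B2m was at 4767, 3390 and 3380 TPM in replicates 1, 2 and 3 (mean 3846 ± 798, SD, n = 3), rank 11 of the 20685 genes tested. H2-K1 was at 2118, 1617 and 2373 TPM (2036 ± 385), rank 18, a level that includes a short non-coding transcript described below. Without that transcript, and with its reads left out, H2-K1 was at 1119 ± 189 TPM, below the mean of H2-D1. H2-D1 was at 1676, 1327 and 1626 TPM (1543 ± 188), rank 19. All B2m values lay above all H2-K1 values, whereas the ranges of H2-K1 and H2-D1 overlapped.

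The non-classical heavy chains were lower, all 6 of them below the lowest H2-D1 value in every library. H2-T23 was at 364, 244 and 279 TPM (296 ± 61.6). H2-T22 was at 346, 196 and 217 TPM (253 ± 80.7). H2-Q4 was at 187, 131 and 173 TPM (164 ± 29.6). These 3 genes formed a middle tier, in which the H2-T22 and H2-T23 ranges overlapped and all H2-Q4 values lay below all H2-T22 values.

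The Qa-2 genes and H2-M3 were lowest. H2-Q7 was at 88.2, 57 and 76 TPM (73.7 ± 15.7). H2-Q6 was at 77.9, 48.8 and 62.5 TPM (63.1 ± 14.6), a range that overlapped that of H2-Q7. H2-M3 was at 47.2, 31.4 and 31.9 TPM (36.8 ± 9.03), and all its values lay below those of H2-Q6. Behind these levels lay 229395, 201814 and 178444 expected counts for B2m in replicates 1, 2 and 3, and 4324, 3527 and 3224 for H2-M3, the least covered of the 9 genes. In bulk RNA of this kind, fewer cells of a type and less RNA per cell cannot be told apart.

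**Figure D1:**
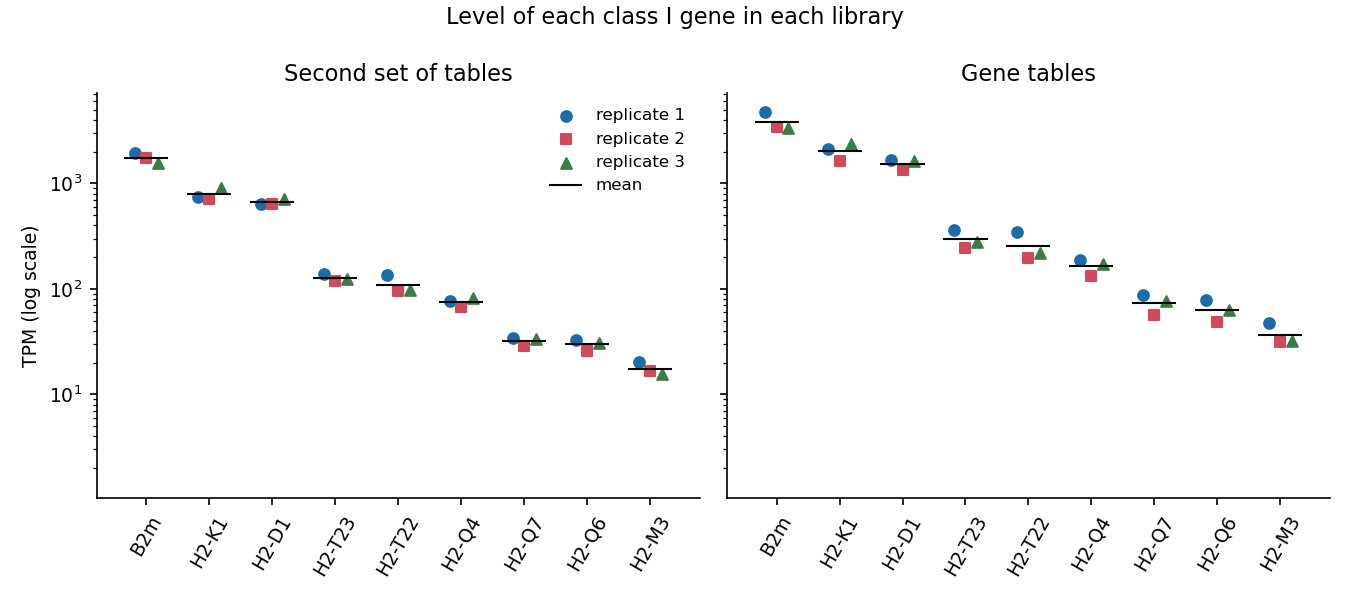
TPM on a log scale for each of the 9 genes in each of the 3 libraries, in a second set of tables, made from the same reads (left), and in the gene tables used above (right); points are libraries and bars are means. B2m, H2-K1 and H2-D1 lie above 1000 TPM in the gene tables, the next gene, H2-T23, averages 296 TPM, and H2-M3 is lowest at 36.8 TPM.

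All 9 genes stood above 1 TPM (limma on log2(TPM + 1), Benjamini-Hochberg adjustment over 20685 genes), with adjusted p between 8.9e-09 for H2-D1 and 9.2e-08 for H2-M3. The same call was made for 44.5% of all genes tested, and 50.4% were called below 1 TPM. The median of the 9 genes was 253 TPM, against 0.68 TPM over all genes tested, and even H2-M3 had rank 1344. Together the 9 genes held 0.831% ± 0.132 of all TPM, 2.74% ± 0.286 of coding-scaled TPM and 1.36% ± 0.135 of counts (SD, n = 3).

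The order of neighbouring levels was the same in 3 of 3 libraries, although an exact two-sided sign-flip test over 3 libraries cannot give a p below 0.25. B2m stood 1.92 ± 0.44 times as high as H2-K1 in TPM, and H2-K1 stood 1.31 ± 0.13 times as high as H2-D1 (SD, n = 3). The widest step between neighbours was that of H2-D1 over H2-T23, at 5.29 ± 0.62. H2-T23 stood 1.19 ± 0.12 times as high as H2-T22, H2-T22 1.53 ± 0.30 times as high as H2-Q4, and H2-Q4 2.23 ± 0.09 times as high as H2-Q7. H2-Q7 over H2-Q6 was the narrowest step, at 1.17 ± 0.04, and H2-Q6 over H2-M3 was 1.72 ± 0.21. For H2-K1 and H2-D1, H2-T23 and H2-T22, and H2-Q7 and H2-Q6 the ranges over libraries overlapped, while within each library the ratio was above 1. It ran from 1.22 to 1.46 for H2-K1 over H2-D1, from 1.05 to 1.29 for H2-T23 over H2-T22 and from 1.13 to 1.22 for H2-Q7 over H2-Q6. In counts, not divided by length, the last of these orders turned, with H2-Q6 at 1.04, 1.03 and 1.01 times H2-Q7 in replicates 1, 2 and 3. H2-T22 and H2-T23 were then close, at 618 ± 134 and 614 ± 75.5 CPM (SD, n = 3), with H2-T22 higher in replicate 1 alone.

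Of the summed TPM of the 8 heavy chain genes, H2-K1 held 45.5% ± 3.11 and H2-D1 34.7% ± 1.45, together 80.2% ± 2.66 (SD, n = 3). Further class I genes, such as H2-T24 at 56.9 ± 15.2 TPM, were not part of that sum. H2-T23 held 6.62% ± 0.824, H2-T22 5.64% ± 1.3 and H2-Q4 3.66% ± 0.141. The remaining heavy chains each held under 2%, with H2-Q7 at 1.64% ± 0.135, H2-Q6 at 1.41% ± 0.16 and H2-M3 at 0.827% ± 0.155. Because each surface molecule pairs 1 heavy chain with 1 light chain, their RNA levels were also set against each other. The summed heavy chains were 1.03, 1.08 and 1.43 times B2m in TPM in replicates 1, 2 and 3 (1.18 ± 0.22). In these tables the heavy chains summed to more than B2m in 3 of 3 libraries, but in the second set the ratio was 0.936, 0.978 and 1.26, below 1 in replicates 1 and 2. In the gene tables the ratio was 0.932 ± 0.124 without a single H2-K1 transcript, which is described next.

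H2-K1 differed from the other genes in what its TPM was made of. Of its 16 annotated transcripts, 3 held at least 10% of its TPM in the mean of a set. H2-K1-201, the 8-exon coding transcript of 1619 bases, held 42.4%, 39.9% and 37.2% in replicates 1, 2 and 3 (39.8% ± 2.62). H2-K1-205, also coding, held 13.1%, 10.5% and 6.98% (10.2% ± 3.06). H2-K1-215, annotated as a retained intron, has 2 exons, 457 bases and no coding sequence, and held 39.6%, 43.7% and 50.8% (44.7% ± 5.68). It was the most abundant H2-K1 transcript by TPM in replicates 2 and 3. All 7 retained-intron transcripts of H2-K1 together held 46% ± 5.75 of its TPM, against 18.1% ± 1 in H2-Q7, 5.3% ± 0.479 in H2-Q4, 1.36% ± 0.245 in H2-T23, 0.403% ± 0.0187 in H2-T22 and 0.236% ± 0.0358 in H2-D1 (SD, n = 3).

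H2-K1-215 lies at chr17:33996106-33996674, at the 3′ end of the gene, and 437 of its 457 bases lie inside exons of H2-K1-201. The remaining 20 bases, at the 5′ end of its first exon, are what sets it apart. They are shown here in capitals, from the GENCODE M21 transcript (chr17:33996616-33996674, minus strand), beside H2-K1-201 from the same exon and the end of the exon before it, whose last 20 bases are in capitals.
H2-K1-215: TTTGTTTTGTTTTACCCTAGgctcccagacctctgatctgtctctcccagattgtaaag
H2-K1-201: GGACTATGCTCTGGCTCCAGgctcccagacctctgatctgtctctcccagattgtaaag
The lower-case part is the same exon in both transcripts, so only a read that reaches into the capitals tells the transcripts apart at this place.

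Because TPM divides by length, a short transcript weighs more in TPM than in counts. H2-K1-215 held 12.8% ± 2.41 of the H2-K1 counts, against 66.4% ± 1.14 for H2-K1-201 and 16.2% ± 3.67 for H2-K1-205 (SD, n = 3). Without H2-K1-215, H2-K1 was at 1279, 910 and 1167 TPM in replicates 1, 2 and 3, below H2-D1 in 3 of 3 libraries. The ratio of H2-K1 to H2-D1 was then 0.722 ± 0.039, against 1.31 ± 0.13 with all transcripts. It was 0.707 ± 0.0427 over protein-coding transcripts only and 0.714 ± 0.048 over transcripts of at least 1000 bases. These 3 alternatives were chosen after the data had been seen. They leave out the reads of the dropped transcripts and do not divide them again. Since 437 of the 457 bases of H2-K1-215 lie inside exons of H2-K1-201, H2-K1 would be higher if those reads came from H2-K1-201. In counts, H2-D1 had the highest mean of the 9 genes at 4580 ± 594 CPM, B2m was at 4044 ± 409 CPM and H2-K1 at 2816 ± 440 CPM (SD, n = 3). In replicate 1 B2m was higher, at 4515 CPM, against 4416 CPM for H2-D1.

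The share of H2-K1-215 was highest in replicate 3, the library in which nuclear RNAs were also highest. The 5 nuclear RNA genes listed summed to 68714 TPM in replicate 3, against 27901 and 27010 TPM in replicates 1 and 2, with 3 of 5 above 1 TPM. Rn7sk, the 7SK RNA that restrains P-TEFb, was highest at 68232 TPM in replicate 3, against 27778 and 26912 TPM in replicates 1 and 2, and Meg3 was lowest at 0.01 ± 0.0173 TPM. In the gene tables the retained-intron share of TPM was highest in replicate 1 in H2-Q7, H2-Q4, H2-T23 and H2-D1. For H2-Q7 it was 19.3%, 17.5% and 17.6% in replicates 1, 2 and 3, and for H2-Q4 5.82%, 4.87% and 5.2%. For H2-T22 it was 0.414% in both replicates 1 and 3. In the second set those of H2-T23 and H2-T22 were highest in replicate 3, at 1.46% and 0.397%. The part of nuclear RNA in the H2-K1-215 share was not tested.

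**Figure D2:**
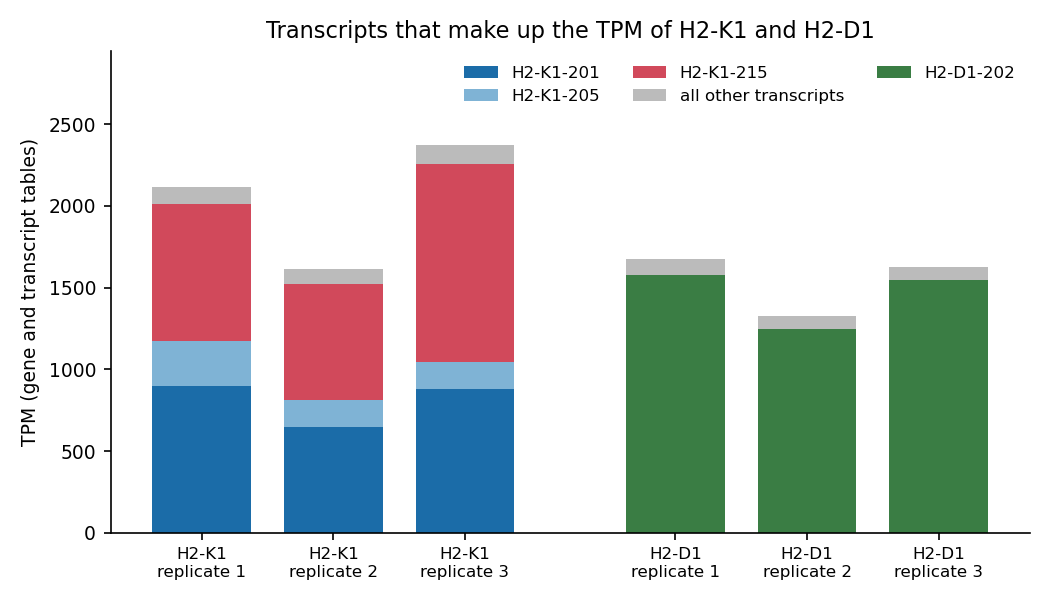
TPM of H2-K1 and H2-D1 in each of the 3 libraries, stacked by transcript; bar heights are the gene level. H2-K1-215 (red) holds 39.6%, 43.7% and 50.8% of the H2-K1 bar in replicates 1, 2 and 3, and H2-D1-202 (green) holds 94.5% of H2-D1 on average.

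The other heavy chains had their own leading transcripts. H2-D1-202 held 94.5% ± 0.624 of H2-D1 TPM, H2-Q4-201 94.7% ± 0.479 of H2-Q4 and H2-T23-201 98.6% ± 0.245 of H2-T23 (SD, n = 3). H2-Q6-202 held all TPM of H2-Q6, while H2-M3-201 and B2m-201 are the sole annotated transcripts of their genes. H2-T22 was divided between coding transcripts that share most exons and the same length of coding sequence, 1137 bases. H2-T22-202 held 60.7% ± 2.76 and H2-T22-203 34.8% ± 3.45.

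H2-Q7 was the other gene with a mixed make-up. H2-Q7-204 led in each library, with 54.2%, 55.9% and 56.9% of H2-Q7 TPM in replicates 1, 2 and 3 (55.7% ± 1.38). H2-Q7-201, which keeps the exons of all the extracellular domains, held 26%, 25.2% and 24.9% (25.4% ± 0.553). H2-Q7-206, a retained-intron transcript of 4209 bases, held 17.6% ± 0.84 of TPM but 45.3% ± 1.32 of counts. Its length works in the opposite direction to that of H2-K1-215. H2-Q7-204 lacks 402 bases that H2-Q7-201 has, among them the exon of the α3 domain, the part of a heavy chain that CD8 binds.

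The heavy chain genes are alike in sequence, and reads that fit several genes are divided by an estimate. Over the 28 pairs of leading coding sequences, identity of aligned bases ran from 72.9% to 95.4% with a median of 81.8%. H2-Q6 and H2-Q7 were the most alike at 95.4%, H2-K1 and H2-D1 matched at 91.5%, and H2-Q6 and H2-M3 were the least alike. In an alignment of H2-K1, H2-D1, H2-Q4, H2-Q6 and H2-Q7, 184 of 978 ungapped positions varied. The least variable 60 bases, in exon 4, varied at 1 position (capital), where H2-Q4 differed from the other 4 genes. They show how a read can fit 5 genes equally well or nearly so, and are given from GENCODE M21 for H2-K1 (chr17:33997374-33997433) and H2-Q4 (chr17:35382985-35383044).
H2-K1: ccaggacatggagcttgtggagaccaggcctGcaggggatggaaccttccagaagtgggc
H2-Q4: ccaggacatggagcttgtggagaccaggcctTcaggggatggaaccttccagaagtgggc
The most variable 60 bases, in exon 1, where the signal peptide begins, varied at 22 positions (capitals). They are shown for the classical pair and the Qa-2 pair, at chr17:34000198-34000257, chr17:35263123-35263182, chr17:35424877-35424936 and chr17:35439221-35439280.
H2-K1: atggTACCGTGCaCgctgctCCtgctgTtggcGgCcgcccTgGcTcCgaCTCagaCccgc
H2-D1: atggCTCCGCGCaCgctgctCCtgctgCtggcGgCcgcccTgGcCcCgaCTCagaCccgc
H2-Q6: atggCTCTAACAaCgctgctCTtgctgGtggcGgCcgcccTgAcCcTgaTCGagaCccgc
H2-Q7: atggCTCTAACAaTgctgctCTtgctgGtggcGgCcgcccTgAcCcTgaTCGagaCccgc

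How much of each leading transcript is shared was counted over all transcripts of other genes in the annotation, read on either strand. H2-T22 had the largest share of 31-base stretches that occur in another gene, 63.8%, and 56.1% of its stretches occur in H2-T10. The Q genes followed, with 58.4% for H2-Q4, 52.6% for H2-Q7 and 51.8% for H2-Q6, then H2-T23 with 49.3%. The classical genes were lower, 27.7% for H2-D1 and 23.3% for H2-K1, while H2-M3 shared 4.62% and B2m none. For stretches of 100 bases the shares were 21.9% for H2-Q7, 14.8% for H2-T22, 13.9% for H2-Q4, 13% for H2-Q6, 7.28% for H2-T23, 4.64% for H2-D1 and 0 for H2-K1, H2-M3 and B2m. H2-T10 itself was estimated at 8.32 ± 2.74 TPM and H2-Q5, which holds 31.8% of the 31-base stretches of H2-Q7, at 37.9 ± 3.38 TPM (SD, n = 3). Both genes are described here because of this sharing, after their values had been seen. H2-Q4 also overlaps Gm11131 on the opposite strand, where 18% of the 31-base stretches of H2-Q4 occur. Reads from that shared part cannot be told apart without a stated strand setting.

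**Figure D3:**
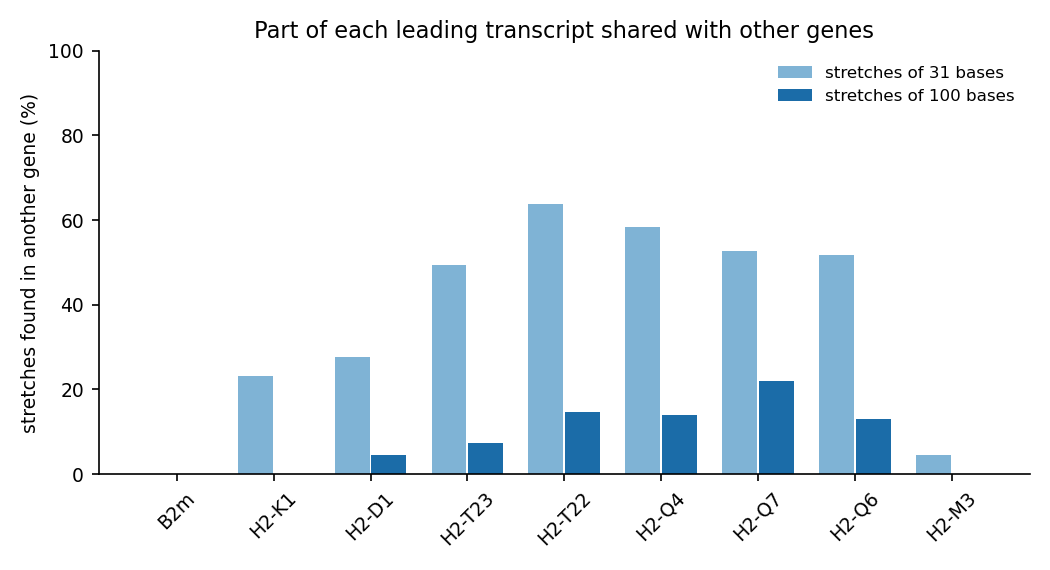
Percent of the 31-base and 100-base stretches of each gene's leading transcript that occur in a transcript of another gene. At 31 bases H2-T22 is highest at 63.8% and B2m is at 0; at 100 bases H2-Q7 is highest at 21.9%.

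The second set of tables divides the same reads in another way, so it was used to ask how far the levels depend on that division. It gave the same order of the 9 genes in 3 of 3 libraries. Its deposited TPM was lower for all 9 genes, from 1753 ± 189 TPM for B2m, 786 ± 98.4 for H2-K1 and 659 ± 39.7 for H2-D1 to 17.5 ± 2.48 for H2-M3 (SD, n = 3). Most of that gap was common to other genes, whose median difference was -0.79 on the log2 scale, and both sets were therefore scaled to coding genes before they were compared.

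After that scaling, 5 of the 9 genes were lower in the second set than in the gene tables and none was higher (limma on the within-library difference, adjusted over 12809 genes). Of all genes compared, 19.8% were called lower and 26.3% higher. H2-K1 had the largest difference of the 9 genes, with 5678 ± 1182 coding-scaled TPM in the second set against 6789 ± 1628 in the gene tables, or -0.25 on the log2 scale (SE 0.032, adjusted p = 0.017). By limma, H2-D1 differed by -0.11 (adjusted p = 0.018), H2-T23 by -0.10 (0.018), H2-T22 by -0.07 (0.023) and H2-Q7 by -0.07 (0.028). The values of each were lower in 3 of 3 libraries. Both sets come from the same reads, so these p-values measure how repeatably the sets differ and not biological spread. B2m at -0.01, H2-Q4 at 0.00, H2-Q6 at 0.06 and H2-M3 at 0.06 did not pass the test, with adjusted p from limma between 0.068 and 0.92. The median of the 9 genes was -0.07, against 0.01 over all genes compared, whose middle values ran from -0.05 to 0.16 (quartiles). H2-K1 and the other 4 genes called lower thus lay below the lower quartile, although the differences other than that of H2-K1 were small. The calls did not hold under every alternative: 2 were made without replicate 1 (H2-K1 and H2-D1), 0 without replicate 2, 0 without replicate 3 and 0 when every gene above 0 was tested.

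**Figure D4:**
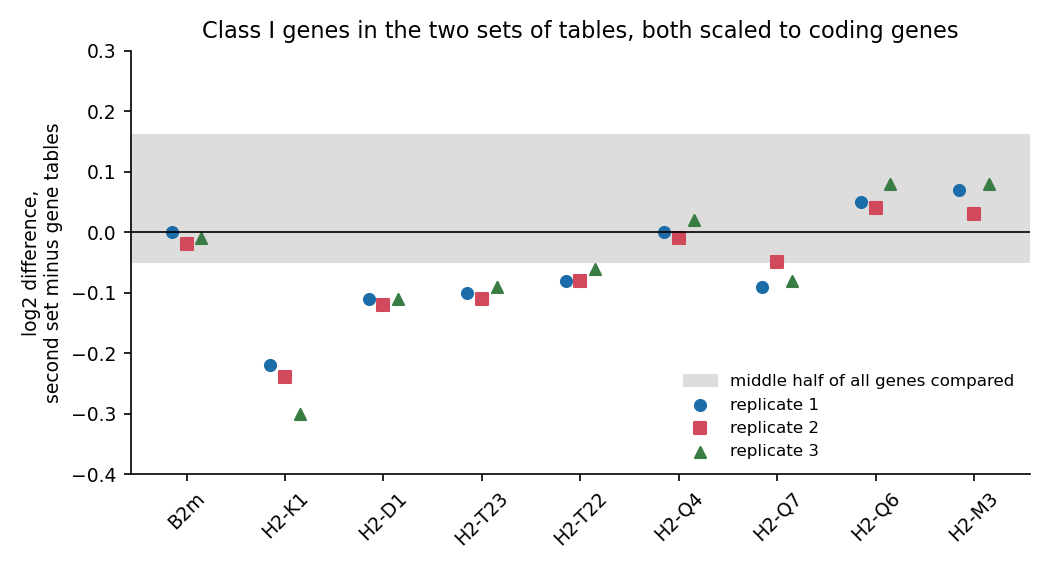
Log2 difference, second set minus gene tables, of each gene in each library after both sets were scaled to nuclear protein-coding genes; the grey band spans the lower to the upper quartile (-0.05 to 0.16) of the 12809 genes compared. H2-K1 lies lowest, between -0.30 and -0.22, and B2m and H2-Q4 lie near 0.

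The counts themselves were higher in the second set. It held between 1.024 and 1.172 times the counts of the gene tables for each gene and library, against a median of 1.081 over all genes compared. In CPM, 7 of the 9 genes were called lower in the second set, from -0.20 for H2-D1 to -0.09 for H2-Q4 on the log2 scale, and H2-Q6 and H2-M3 were not. B2m at -0.10 (adjusted p = 3.3e-05, limma) and H2-Q4 (adjusted p = 1.6e-04, limma) were thus called lower in CPM but not by coding-scaled TPM. CPM divides by the total on genes, which was also higher in the second set. That total was 59983417, 61140127 and 56132260 counts in replicates 1, 2 and 3. The share of all genes called lower in CPM was not counted, so the 7 calls cannot be read as particular to class I. For H2-K1 the ratio of second-set to gene-table counts was 1.048, 1.040 and 1.040 in replicates 1, 2 and 3. The transcript H2-K1-215 held 35.4% ± 3.79 of H2-K1 TPM in the second set, against 44.7% ± 5.68 in the gene tables (SD, n = 3). H2-K1 stood 1.19 ± 0.0769 times as high as H2-D1 in the second set, against 1.31 ± 0.128 in the gene tables. The Qa-2 pair was closer, with H2-Q6 at 0.933 ± 0.0335 times H2-Q7 in the second set, against 0.854 ± 0.03 in the gene tables. H2-T22-202 held 54.2% ± 2.77 of H2-T22 in the second set, against 60.7% ± 2.76 in the gene tables.

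Between libraries, all 9 genes varied by more than counting noise (chi-square test, 2 degrees of freedom, Benjamini-Hochberg adjustment over 13075 genes), as did 69.3% of all genes tested. Among the 2481 genes at least as high as H2-M3 the share was 94.5%, so a call of all 9 genes lies near that background. Without replicate 1 the call of H2-M3 was lost (adjusted p = 0.096), and without replicate 2 those of H2-Q7 (0.75) and H2-Q6 (0.068) were lost, each by the chi-square test. The smallest chi-square was that of H2-M3, 144 (adjusted p = 3.7e-31), and the largest that of H2-D1, 7571. The coefficient of variation of coding-scaled TPM was 24% for H2-K1, 20% for H2-T22, 17% for H2-Q7, 16.6% for H2-Q4, 16.2% for H2-Q6, 13.8% for H2-D1, 12.4% for H2-M3, 11.7% for H2-T23 and 8.67% for B2m. The median of the 9 genes was 16.2%, against 9.51% over the 2481 genes, and in CPM it was 15.6%, against 8.99%. Counting alone would give 0.209% for H2-D1 to 1.65% for H2-M3.

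The direction of that variation was shared. All 9 genes were lowest in replicate 2 by coding-scaled TPM and by CPM, where 37.8% and 39.3% of the 2481 genes were lowest in that library. By deposited TPM 8 of 9 were lowest in replicate 2, B2m being slightly lower in replicate 3, against 42.5% of the 2481 genes. These counts were made after the values had been seen. The heavy chain genes share reads, and all 9 genes were measured in the same 3 libraries, so they are not 9 separate observations. By coding-scaled TPM, 5 genes were highest in replicate 3 (H2-K1, H2-D1, H2-Q4, H2-Q7 and H2-Q6) and the other 4, B2m, H2-T23, H2-T22 and H2-M3, in replicate 1. Of the 2481 genes, 38.7% were highest in replicate 3 and 29.5% in replicate 1, so that split lies near the background. H2-K1 was at 6144, 5582 and 8641 coding-scaled TPM in replicates 1, 2 and 3, with the highest value in replicate 3. Without H2-K1-215 it was at 3710, 3142 and 4248, and its coefficient of variation was 14.9% in place of 24%. H2-T22 was at 1002, 678 and 791 coding-scaled TPM and H2-T23 at 1055, 842 and 1017, both highest in replicate 1.

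Interferon-stimulated genes were highest in replicate 1, in 15 of 15 genes by both TPM scales. Of the 2481 genes at least as high as H2-M3, 29.5% were highest there by coding-scaled TPM and 80.8% by deposited TPM, so the count by deposited TPM lies near its background. All 15 stood above 1 TPM, from Oas2 at 14.9 ± 5.11 TPM to Ifit2, an inhibitor of viral translation, at 913 ± 369 TPM (SD, n = 3). Their sum was 25577, 15025 and 17437 coding-scaled TPM in replicates 1, 2 and 3, lowest in replicate 2 as were the class I genes. That minimum was not particular to interferon-stimulated genes. Macrophage markers summed to 19138, 17214 and 18403 coding-scaled TPM, and peptide loading and supply genes to 5590, 5117 and 6023. Not every list had it. Transcriptional regulators of class I (3687, 3062 and 3013) were lowest in replicate 3, and class I receptor genes (939, 998 and 1054) in replicate 1. The part of interferon signalling in the class I levels was not tested.

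The partners of class I were also present. All 13 peptide loading and supply genes stood above 1 TPM, with a median of 106 TPM. Tapbp, which encodes tapasin, the bridge between the heavy chain and the peptide transporter, was highest at 301 ± 49.8 TPM, and its relative Tapbpl lowest at 14.5 ± 3.27 TPM. All 17 transcriptional regulators of class I stood above 1 TPM, with a median of 25.9 TPM, and Nfyb, a subunit of the CCAAT-binding factor NF-Y, was lowest at 2.51 ± 0.382 TPM. Nlrc5, the class I transactivator, was at 37.2, 19.1 and 27.1 TPM in replicates 1, 2 and 3, and was picked from this list after its values had been seen. Nlrc5 was lowest in replicate 2, whereas the sum of the 17 genes, 1271, 887 and 828 TPM in the same order, was lowest in replicate 3.

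Of 19 further class I and class I-like genes matched by symbol, 9 stood above 1 TPM, 3 stood below it and 7 were listed at 0 in all libraries. H2-Q8, H2-Q9 and H2-T9 were also sought but matched no gene by symbol, so their levels are not known. H2-T24 was highest at 56.9 ± 15.2 TPM, between the levels of H2-Q6 and H2-M3, and H2-Q1 was lowest of the measured genes at 0.00333 ± 0.00577 TPM (SD, n = 3). Among 11 genes listed with class I receptors and matched by symbol, not all of them established receptors for class I, 4 stood above 1 TPM. The inhibitory myeloid receptor gene Lilrb4a was highest at 148 ± 7.26 TPM, and the lowest measured was the NK cell receptor gene Klrc1 at 0.00333 ± 0.00577 TPM, whose product recognises Qa-1.

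The genes whose level followed the mean class I pattern over the 3 libraries most closely were Ctsh, a lysosomal cathepsin gene, Fcer1g, an Fc receptor signalling chain gene, Aoah, which encodes a lipopolysaccharide-deacylating enzyme, Tuba1b, a tubulin gene, and Tmbim6, a gene of an endoplasmic reticulum membrane protein. Likeness was the Euclidean distance between centred log2(TPM + 1) values, 0.007 for Ctsh, 0.024 for Fcer1g, 0.030 for Aoah, 0.043 for Tuba1b and 0.045 for Tmbim6, among 488 genes of at least 100 TPM. Ctsh was at 243, 166 and 199 TPM in replicates 1, 2 and 3. Likeness was taken on deposited TPM, by which 80.8% of the 2481 genes at least as high as H2-M3 were highest in replicate 1. So were 8 of the 9 class I genes, against 4 of 9 by coding-scaled TPM, so the pattern depends on the scale. With 3 libraries the pattern is common: 74 of the 488 genes lay nearer to it than the median class I gene did, at 0.191.

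Class I promoters are known to carry an NF-κB element, an interferon response element bound by IRF factors, and a module that includes a CREB/ATF site and a CCAAT box. Windows from 250 bases before to 50 bases after the RefSeq transcription start (build GRCm38.p6) were found for all 9 genes and searched on both strands, with motifs chosen after the promoter sequences had been seen. The 10-letter κB consensus, for NF-κB, was in 8 of 9 windows (all but H2-T23), against 8.46% of 32851 windows. The letters GAANNGAAA, for IRF, were in 6 of 9 (H2-K1, H2-D1, H2-Q4, H2-Q6, H2-Q7 and H2-M3), against 7.52%. H2-T22 has a near match to these letters on the other strand, which was not counted. TGACG, for CREB/ATF, was in 7 of 9, against 20.8%, and CCAAT was in 9 of 9, against 37.4%. The window of H2-D1 lies inside the first exon of H2-D1-202 in GENCODE M21, so it is not upstream of that start. Without it the counts were 7, 5, 6 and 8 of 8 in the same order of motifs. The κB consensus is nearly its own complement, so several of its matches overlap on both strands, and in H2-M3 a κB match overlaps a CCAAT match. The heavy chain windows are related in sequence and are not independent.

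Promoters of 4 kinds are shown, each 120 bases with matches in capitals, to let the elements be read in place: a classical gene, a Qa-2 gene, H2-M3 and B2m, which has no match to the IRF letters. They lie at chr17:34000349-34000468 (minus strand), chr17:35439012-35439131, chr17:37270098-37270217 and chr2:122147551-122147670 (plus strand).
H2-K1: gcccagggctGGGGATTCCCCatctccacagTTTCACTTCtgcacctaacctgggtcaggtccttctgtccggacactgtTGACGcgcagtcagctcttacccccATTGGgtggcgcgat
H2-Q7: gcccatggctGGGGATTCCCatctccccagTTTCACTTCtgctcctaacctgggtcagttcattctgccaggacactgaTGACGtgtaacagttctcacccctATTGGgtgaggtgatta
H2-M3: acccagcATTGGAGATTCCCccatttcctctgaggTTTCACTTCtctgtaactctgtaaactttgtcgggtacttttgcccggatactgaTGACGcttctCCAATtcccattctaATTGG
B2m: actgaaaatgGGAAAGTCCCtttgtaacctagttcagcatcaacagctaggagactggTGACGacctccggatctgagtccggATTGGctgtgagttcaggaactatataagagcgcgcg
TTTCACTTC is the IRF match read on the other strand, ATTGG is CCAAT on the other strand, and in H2-M3 and B2m the κB consensus matches on the other strand alone. A match describes letters in a window and not a bound site.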

How the data were processed

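Total RNA sequencing after ribosomal RNA depletion covered 3 cytosolic libraries of 1 group, per the labels. Per the text deposited with each library, tables were made on build mm10 with GENCODE M21. Per the file headers, the authors' gene tables hold expected counts with the authors' posterior SD, TPM values and effective lengths, and the matching transcript tables give each transcript's share of its gene in percent. A second set of deposited tables, in another layout, holds its own estimated counts and TPM per transcript, which were summed to genes here. For the tools, and for whether counting used strand, nothing is given in the sources used here. TPM is divided by effective length and by a total that 7SL RNA dominates, so short transcripts weigh heavily in it and levels of messenger RNA fall as that total rises.

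The 9 genes were mapped to gene IDs through the names in the second set of tables. Entries that are not genes held 0.378%, 0.0931% and 0.0772% of counts in replicates 1, 2 and 3 and were left out. Expected counts were rounded to whole numbers for the noise test. The authors' posterior SD of the count was 0 for B2m and H2-M3 and at most 12 counts (H2-Q7, replicate 1).

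Levels and set differences were fitted with limma 3.58.1 in R 4.3.3 (intercept only, trend, robust, pseudocount 1, adjusted p under 0.05) over the genes not at 0 TPM in all libraries, and over genes of at least 1 coding-scaled TPM in either set. The noise test used genes with at least 30 counts in sum. Fitted differences on the log2(value + 1) scale understate those of low genes. Scripts were tested on simulated data. Alternatives used edgeR 4.0.16 (TMM) and DESeq2 1.42.0 (size factors), a pseudocount of 0.1, a level of 5 TPM, other filters, counts in place of TPM, and leaving out each replicate. Promoters are from RefSeq and transcript sequences from GENCODE. Genes, gene lists and tests were chosen with earlier results of these data known. The text names the 9 genes, their transcripts of at least 10% in either set, the highest and lowest measured gene of each list and the 5 genes nearest in pattern, apart from a few items that are not reported here. Others are marked as chosen after their values were seen, or named as listed at 0 or as not matched by symbol.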

Additional observations from a re-analysis of the deposited data

How the results depend on the processing

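All 9 genes stayed above 1 TPM, and above 5 TPM where that level was set, in every alternative run for that test. All 9 varied beyond counting noise in every alternative run for that test except without replicate 1, where 8 did (all but H2-M3), and without replicate 2, where 7 did (all but H2-Q6 and H2-Q7). The orders of H2-K1 over H2-D1 and of H2-Q7 over H2-Q6 did not hold in every setting. H2-Q6 was 1.13 times H2-Q7 in second-set counts and 1.03 times in gene-table counts, against 0.933 and 0.854 in TPM. The ratio of H2-K1 to H2-D1 was 1.19 in the second set and 1.31 in the gene tables, but 0.614 in counts, 0.707 over protein-coding transcripts, 0.722 without H2-K1-215 and 0.714 over transcripts of at least 1000 bases. In the same order of settings, the heavy chains summed to 1.06 and 1.18 times B2m in TPM, and to 2.37, 0.917, 0.932 and 0.89 times. The share of H2-K1 and H2-D1 in the heavy chains was 80.2% in TPM, and 75.6%, 75.2% and 74% in the last 3 settings, which were added after the data had been seen.

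The number of genes that differed between the sets was 5 and moved to 9 with TPM as deposited (all lower), to 7 in CPM (all lower, B2m and H2-Q4 added), to 0 when all genes above 0 in either set were tested, and to between 0 and 2 with a replicate left out. Shares of all genes called were not counted with TPM as deposited or in CPM. With TPM as deposited the median over all genes compared was -0.79 on the log2 scale. With all genes above 0 tested, each of the 5 had an adjusted p of 0.11 (limma), and H2-Q7 had 0.052 with a pseudocount of 0.1. Direction turned for genes that had not passed the test. H2-Q4, H2-Q6 and H2-M3 were at -1.10, -1.03 and -1.01 with TPM as deposited and at -0.09, -0.03 and -0.03 in CPM, where H2-Q4 passed the test, and H2-Q4 lay between -0.00 (without replicate 3) and 0.01 (without replicate 2) with a replicate left out. The cause was not tested. No paired analysis was possible because the libraries form 1 group and their numbers link no groups; the sets of tables were compared within each library.

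Depth limits none of these levels, since H2-M3 had at least 3224 counts. What limits them is 3 libraries, the division of shared reads, and the lack of untreated cells.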
